A study of Mus musculus with 9 samples.

Results

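Gene expression at 35 h of doxycycline (dox) was compared with that at 21 h in mouse embryonic stem cells (ESC) that carry a dox-inducible Sox17. The comparison rests on 2 of the 9 libraries of the series, 1 at each time. A gene entered it where the deposited table gave an OK status in both libraries and at least 1 FPKM in at least one of them. FPKM scales the fragments of a gene by the length of its transcript and by the library's size, so levels are per length. Of 37975 rows, 13124 entered, and 11977 of these are annotated as protein-coding. Of the others, 24412 were below 1 FPKM in both libraries and 439 lacked an OK status in one or both. Differences are given as log2(FPKM + 1) at 35 h minus the same at 21 h, which understates the change of genes at low levels. A gene is called higher or lower when its difference is at least 1 log2 unit, which is 2-fold in FPKM + 1.

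Both cultures belong to the same Sox17-overexpressing ESC line, named 4J in the table, and received 100 ng/ml dox in ESC conditions. These conditions include serum, the cytokine LIF and a layer of fibroblast feeder cells from mouse embryos, so the RNA can hold feeder transcripts. The other libraries of the line are ESC at 7 h, 49 h and 6 days of dox, ESC without dox, and a derived XEN-type line (Sox17-XEN) not used in the comparisons here. Wild-type XEN cells (IM8AR) and wild-type ESC (R1) complete the series. The day 6 library carries the word SORT in its label, with no further detail. No culture without dox was paired with the later times, so time in culture and time with dox cannot be told apart. With 1 library a group there is no replicate error and no test between times. Whether the cultures were grown together is not stated.

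Sox17 is an HMG-box transcription factor of the SoxF group that is active in primitive endoderm, the extraembryonic layer that lines the inner cell mass of the blastocyst. Primitive endoderm depends on the GATA factors Gata6 and Gata4, while its sister lineage, the epiblast, keeps pluripotency factors such as Nanog. XEN cells are stem cell lines of the primitive endoderm lineage, and forced expression of Sox17 or of a GATA factor is known to drive ESC towards that state.

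Sox17 itself (chr1:4481009-4486494, mm9) was at 0.909 FPKM without dox. It had 283 FPKM after 7 h, 281 FPKM after 21 h, 191 FPKM after 35 h, 151 FPKM after 49 h and 71.1 FPKM at day 6. Its level at 35 h was thus 68.1% of that at 21 h, a difference of -0.55, not past the limit of 1 log2 unit. With 1 value per gene, transcripts of the transgene and of the endogenous locus cannot be told apart. Both libraries carried the transcripts that define ESC, Pou5f1 with 994 FPKM at 35 h against 927 FPKM at 21 h, and Sox2 with 103 FPKM at 35 h against 85.7 FPKM at 21 h.

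The transcriptomes at the 2 times were close. Over 8705 rows with at least 5 FPKM in both libraries the median difference was 0.08, the central 95% ran from -0.37 to 0.43, and 97.2% of rows lay within 0.5. Between the Sox17 line without dox and R1 ESC, 2 lines with no Sox17 induction, the central 95% ran from -0.90 to 1.01 over 8031 rows. These are spreads over genes, not the error of a gene. From the ratio between low FPKM values, the 35 h library was estimated at 77.7% of the depth of the 21 h library, although only 10.2% of 6995 low rows share that ratio. The deposited lower bound was 0 for 99.0% of values at 1 FPKM or more in the 2 libraries, and no gene past the limit had intervals that did not overlap.

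Among all rows, 71 were higher at 35 h, 0.541% of those compared, and 92 were lower, 0.701%. Most of these rows, 58 of the higher and 61 of the lower, were not annotated as protein-coding, and 28 in each direction were small nucleolar RNAs. Among protein-coding rows, 13 were higher (0.109%) and 31 were lower (0.259%). After centring on the median difference, which lowers every value by 0.08, the protein-coding counts were 11 higher and 55 lower. These differences chose the genes described here, so they stand as a description.

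**Figure D1:**
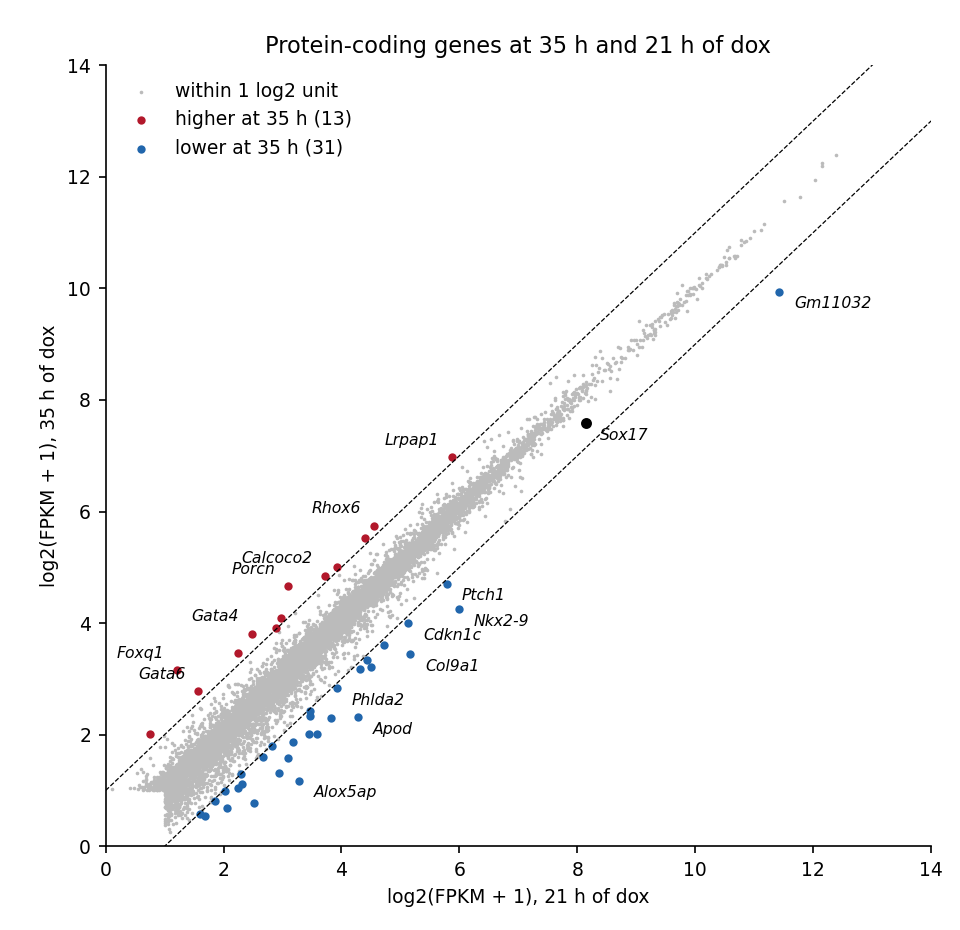
Levels of the 11977 protein-coding genes at 35 h (vertical axis) and 21 h (horizontal axis) of dox, in log2(FPKM + 1), 1 library each. Dashed lines mark 1 log2 unit either way; the 13 higher genes (red) and 31 lower genes (blue) lie outside them, and Sox17 (black), with 191 FPKM at 35 h against 281 FPKM at 21 h, lies between them.

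The genes higher at 35 h included transcription factors and endocytic genes of primitive endoderm. Of 14 genes listed as primitive endoderm regulators, 13 were compared, 4 were higher, none was lower and 11 differed upwards at all, with a median difference of 0.72 against 0.06 over all rows. The 4 were Foxq1, Gata4, Gata6 and Dab2. Of all 13124 rows compared, 8477 differed upwards and 4647 downwards. The list was drawn up with earlier results on these libraries known. In bulk RNA, more cells of a type and more RNA per cell cannot be told apart.

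Gata4 (chr14:63817759-63890529, mm9), a zinc-finger factor of endoderm and heart, had 13.1 FPKM at 35 h against 4.57 FPKM at 21 h, a difference of 1.34. It stood at 0.824 FPKM without dox, 1.96 FPKM after 7 h, 32.04 FPKM after 49 h and 303 FPKM at day 6, so that each later library was above the one before. Gata6 (chr18:11049085-11085633), the related factor at the head of primitive endoderm specification, had 5.86 FPKM at 35 h against 1.96 FPKM at 21 h, a difference of 1.21. It was at 0.282 FPKM without dox and 0.285 FPKM after 7 h, and reached 9.84 FPKM after 49 h and 84.8 FPKM at day 6. Without dox and at 7 h Gata6 was under 1 FPKM and was not compared there.

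Foxq1 (chr13:31648003-31652839), a forkhead transcription factor, had the largest difference of the 13, 1.95, with 7.93 FPKM at 35 h against 1.31 FPKM at 21 h. At 7 h it was at 0.272 FPKM, at 49 h at 13.1 FPKM. Dab2 (chr15:6249788-6390712), an endocytic adaptor abundant in primitive endoderm, had 14.1 FPKM at 35 h against 6.41 FPKM at 21 h, a difference of 1.03. Unlike Foxq1, it was not lowest at the start: it had 8.52 FPKM without dox, 3.78 FPKM after 7 h, 52.1 FPKM after 49 h and 1133 FPKM at day 6. The rows of Foxq1, Gata6 and Dab2 each overlap a further row at the same locus, which can split their fragments. With a pseudocount of 5 FPKM the difference was 0.92 for Gata4, 0.64 for Gata6 and 0.75 for Dab2, none of them past the limit, and 1.04 for Foxq1. When centred, that of Dab2 was 0.95.

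The other regulators compared differed by less than 1 log2 unit, although low levels can hold larger ratios in FPKM itself. Sox7, the SoxF relative of Sox17, had 2.96 FPKM at 35 h against 0.998 FPKM at 21 h, a difference of 0.99, and Bmp2, a secreted BMP ligand, had 1.48 FPKM at 35 h against 0.454 FPKM at 21 h. Klb, the co-receptor for endocrine FGFs, had 6.54 FPKM at 35 h against 3.58 FPKM at 21 h. Foxa2, a forkhead factor of endoderm, went the other way with 4.69 FPKM at 35 h against 6.21 FPKM at 21 h, and Fgfr4, an FGF receptor, had 1.79 FPKM at 35 h against 1.81 FPKM at 21 h. Hnf4a, also of the list, was under 1 FPKM at both times.

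The further higher genes have varied roles. Lrpap1 (chr5:35434139-35448415), the chaperone of the LDL-receptor family that includes the endocytic receptor Lrp2, had 124 FPKM at 35 h against 57.6 FPKM at 21 h, the highest level of the 13. Lrp2 itself had 5.72 FPKM at 35 h against 9.38 FPKM at 21 h. Amot (chrX:141880968-141939724), a junction protein that binds the Hippo effector YAP, had 16.02 FPKM at 35 h against 6.85 FPKM at 21 h. Both Lrpap1 and Amot were near their no-dox level at 7 h and higher at each later time to day 6, when Lrpap1 had 2034 FPKM and Amot 201 FPKM.

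Porcn (chrX:7770974-7783651), the acyltransferase that lipid-modifies Wnt ligands for secretion, had 24.3 FPKM at 35 h against 7.53 FPKM at 21 h, a difference of 1.57. Its level of 11.98 FPKM without dox and 11.4 FPKM at 7 h was above that at 21 h. Nrg2 (chr18:36177333-36357034), an EGF-family ligand of ErbB receptors, had 3.05 FPKM at 35 h against 0.684 FPKM at 21 h. Grin1, an NMDA receptor subunit that shares its locus with another row, had 10.0 FPKM at 35 h against 3.73 FPKM at 21 h, but already 7.14 FPKM at 7 h.

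Rhox6, Rhox9 and Calcoco2 were higher at 35 h but at day 6 were below their level at 21 h. Rhox6 and Rhox9, X-linked homeobox genes of a family of similar copies whose reads may be split between them, had 52.7 and 45.1 FPKM at 35 h against 22.4 and 20.0 FPKM at 21 h. At day 6 they were at 8.54 and 3.13 FPKM. Calcoco2, a receptor for selective autophagy, had 27.8 FPKM at 35 h against 12.2 FPKM at 21 h, and at day 6 was at 2.62 FPKM. It had 11.5 FPKM without dox and 12.8 FPKM after 7 h. Its level in wild-type XEN cells was 0.0948 FPKM, against 17.2 FPKM in R1 ESC.

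**Figure D2:**
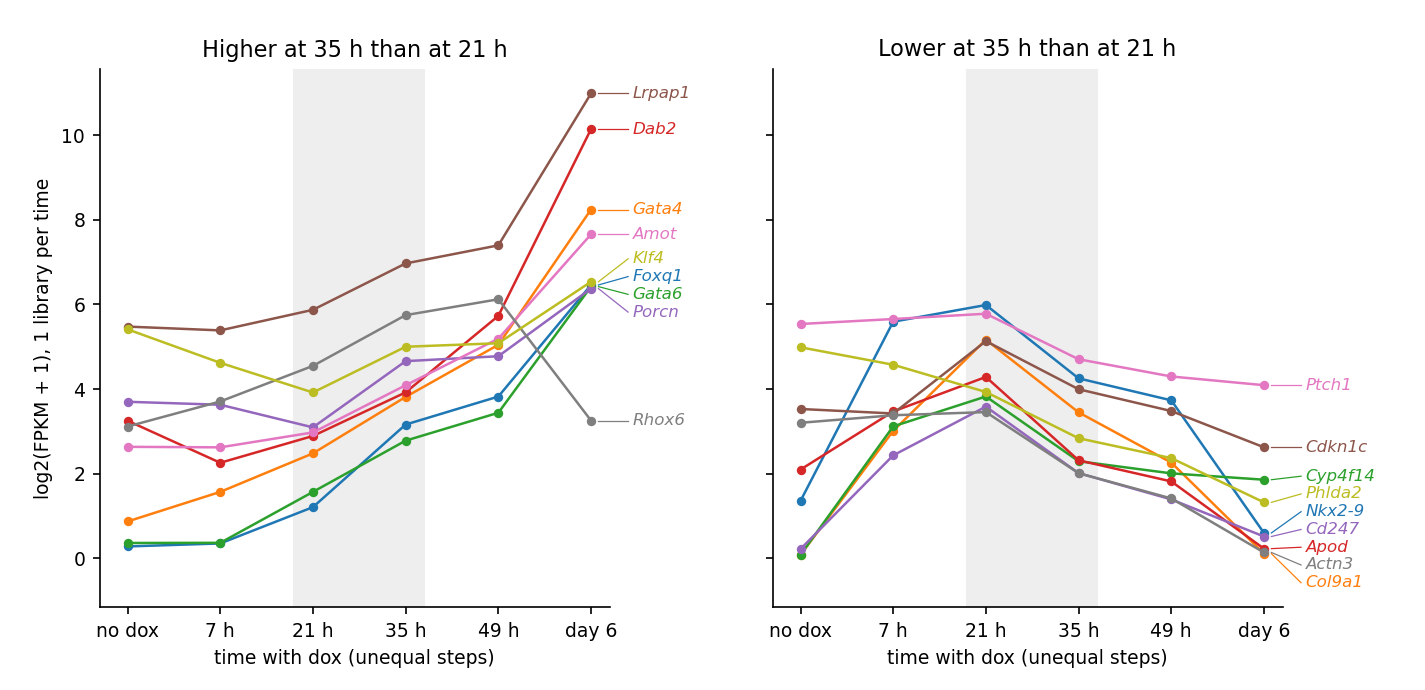
Levels of 9 genes higher (left) and 9 genes lower (right) at 35 h than at 21 h, in log2(FPKM + 1), from no dox to day 6, 1 library per time and unequal steps in time. The grey band marks the 2 times compared; Gata4, Gata6 and Foxq1 go on up to day 6, whereas Nkx2-9, Col9a1, Cyp4f14 and Cd247 are highest at 21 h and lower in each later library.

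Among the 31 genes lower at 35 h were genes that had been strongly raised within 7 h of dox. Of 10 genes listed as early Sox17-responsive, all were compared, 3 were lower, none was higher and 9 differed downwards at all, with a median difference of -0.65. That list was drawn up from earlier results on these libraries and is not independent evidence of its direction. Its 3 lower members were Nkx2-9, Col9a1 and Cyp4f14. Of all 13124 rows compared, 4647 differed downwards.

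Nkx2-9 (chr12:57712376-57714271, mm9), a homeobox factor of the ventral neural tube, had 18.1 FPKM at 35 h against 62.4 FPKM at 21 h, a difference of -1.74. It had been at 1.56 FPKM without dox and 47.2 FPKM after 7 h, and was at 12.3 FPKM after 49 h and 0.511 FPKM at day 6. Col9a1 (chr1:24184449-24259577), a chain of the cartilage collagen IX, had 9.91 FPKM at 35 h against 34.9 FPKM at 21 h, a difference of -1.72. It had 0.0554 FPKM without dox, 7.05 FPKM after 7 h and 3.79 FPKM after 49 h. Cyp4f14 (chr17:33042016-33054023), a cytochrome P450 that hydroxylates fatty acids, had 3.90 FPKM at 35 h against 13.2 FPKM at 21 h, after 0.0559 FPKM without dox and 7.67 FPKM at 7 h.

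These 3 levels were 28.4% to 29.6% of those at 21 h, a larger drop than that of Sox17 to 68.1%. The other members of the list differed by less than 1 log2 unit. Sox2ot, a long non-coding RNA around Sox2, had 9.17 FPKM at 35 h against 17.2 FPKM at 21 h, Pgam2, a muscle glycolytic enzyme, 28.9 FPKM at 35 h against 48.1 FPKM at 21 h, and Sox21, a SOX-family repressor, 23.5 FPKM at 35 h against 33.7 FPKM at 21 h. Igf1, a growth factor, and Lama1, a laminin chain of basement membranes, were near level, Igf1 with 27.2 FPKM at 35 h against 26.1 FPKM at 21 h, Lama1 with 28.4 FPKM at 35 h against 30.3 FPKM at 21 h. Members of the list therefore ranged from -1.74 to 0.06.

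Promoters are shown for the 3 early genes, since they went down together, for Apod, the lower gene with the largest difference among those at 5 FPKM or more with an unshared locus, and for Dab2 as a higher gene. Each sequence runs from 250 bases before to 50 after the first RefSeq start listed for the gene (GRCm38.p6), on the strand of the gene. Other starts of a gene were not searched. Capitals mark the SOX-type word ATTGT and the GATA words AGATAA and TGATAA, on either strand.
Nkx2-9 promoter (chr12:56613235-56613534, minus strand): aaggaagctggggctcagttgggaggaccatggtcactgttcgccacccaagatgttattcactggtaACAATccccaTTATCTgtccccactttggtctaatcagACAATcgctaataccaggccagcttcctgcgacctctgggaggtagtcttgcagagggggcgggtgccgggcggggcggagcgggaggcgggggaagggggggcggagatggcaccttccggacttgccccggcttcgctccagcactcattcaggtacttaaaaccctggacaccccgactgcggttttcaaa
Cyp4f14 promoter (chr17:32917307-32917606, minus strand): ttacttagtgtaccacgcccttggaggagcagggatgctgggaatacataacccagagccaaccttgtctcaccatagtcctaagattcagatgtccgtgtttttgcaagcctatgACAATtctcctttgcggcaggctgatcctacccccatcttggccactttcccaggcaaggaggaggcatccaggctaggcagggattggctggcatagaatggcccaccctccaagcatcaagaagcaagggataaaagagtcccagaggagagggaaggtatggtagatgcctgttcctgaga
Col9a1 promoter (chr1:24177360-24177659, plus strand): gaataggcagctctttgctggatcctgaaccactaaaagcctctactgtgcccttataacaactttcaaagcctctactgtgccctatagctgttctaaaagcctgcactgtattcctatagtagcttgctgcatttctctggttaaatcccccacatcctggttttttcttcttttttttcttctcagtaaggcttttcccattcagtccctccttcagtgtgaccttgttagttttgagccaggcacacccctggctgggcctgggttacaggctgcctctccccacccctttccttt
Apod promoter (chr16:31314759-31315058, minus strand): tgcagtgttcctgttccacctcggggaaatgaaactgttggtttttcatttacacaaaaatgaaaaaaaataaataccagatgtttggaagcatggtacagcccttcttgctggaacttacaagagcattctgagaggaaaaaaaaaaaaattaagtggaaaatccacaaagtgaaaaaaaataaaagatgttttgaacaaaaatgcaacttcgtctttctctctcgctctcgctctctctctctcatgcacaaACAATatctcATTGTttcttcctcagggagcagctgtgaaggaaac
Dab2 promoter (chr15:6299539-6299838, plus strand): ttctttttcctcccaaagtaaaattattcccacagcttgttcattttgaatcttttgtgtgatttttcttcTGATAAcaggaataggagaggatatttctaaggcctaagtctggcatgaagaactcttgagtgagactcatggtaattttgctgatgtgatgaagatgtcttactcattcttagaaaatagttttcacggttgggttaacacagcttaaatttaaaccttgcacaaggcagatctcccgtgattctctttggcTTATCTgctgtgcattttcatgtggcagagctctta
Promoter entries matched 5 of the 13 higher and 18 of the 31 lower genes by symbol. The word ATTGT was in 1 of the 5 and in 6 of the 18 (33.3%), against 31.6% of all 27025 promoters, 1 per gene. A GATA word was in 2 of the 5 and 2 of the 18, against 18.95% of all promoters. Of the 5 higher genes, Dab2, the one shown, held the most GATA words, 2. Grin1 held 1, and Klf4, Lrpap1 and Amot held none. The octamer ATTTGCAT, which POU factors such as Oct4 bind, was in none of either group, against 1.75% of all. The matches are words in a fixed window and show no binding.

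Apod (chr16:31296278-31314894, mm9), a secreted lipid-binding apolipoprotein, had 3.97 FPKM at 35 h against 18.5 FPKM at 21 h, a difference of -1.97. It had 3.27 FPKM without dox and 10.1 FPKM at 7 h, so that at 35 h it was back near its level before dox. Alox5ap, the membrane helper of leukotriene synthesis, had the largest difference of the 31, -2.11, with 1.26 FPKM at 35 h against 8.76 FPKM at 21 h, at a shared locus. Other genes highest at 21 h had lower levels, such as Cd247, a signalling chain of the T cell receptor, with 3.03 FPKM at 35 h against 10.99 FPKM at 21 h, and Mt3, a metallothionein, with 1.48 FPKM at 35 h against 6.65 FPKM at 21 h.

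A pair of neighbours from one imprinted cluster, Cdkn1c and Phlda2, were both lower. Cdkn1c (chr7:150644255-150646955), which encodes the cyclin-dependent kinase inhibitor p57, had 14.9 FPKM at 35 h against 34.1 FPKM at 21 h. At 7 h and without dox it was at 9.71 and 10.5 FPKM, so the 21 h library alone stood high. Phlda2 (chr7:150687450-150688446), whose product limits placental growth, had 6.14 FPKM at 35 h against 14.2 FPKM at 21 h, in a course that went down from 30.7 FPKM without dox. They were the 2 lower members of 17 imprinted genes compared. Igf2 and H19, imprinted genes of another cluster, were within 1 log2 unit, Igf2 with 21.7 FPKM at 35 h against 11.2 FPKM at 21 h, H19 with 41.4 FPKM at 35 h against 22.8 FPKM at 21 h. Of 17 p53 targets and cell-cycle inhibitors Cdkn1c was the only one past the limit, and none of 21 proliferation genes was. Over all rows compared, 0.541% were higher and 0.701% lower, so counts in lists this short say little about the lists.

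Ptch1 (chr13:63610261-63674474), the Hedgehog receptor and a target of its own pathway, had 25.1 FPKM at 35 h against 54.0 FPKM at 21 h. Its levels of 45.5 FPKM without dox and 49.4 FPKM at 7 h were close to that at 21 h, and at 49 h it was at 18.7 FPKM. Actn3, an alpha-actinin of fast muscle, likewise had 3.03 FPKM at 35 h against 9.96 FPKM at 21 h after 8.197 FPKM without dox. Krt17, Tgm1 and Cpne2, a keratin, a transglutaminase and a copine, had 7.99, 4.04 and 11.2 FPKM at 35 h against 18.95, 10.04 and 25.4 FPKM at 21 h.

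Further lower genes were Asprv1, Gad1, Gm11032, Crmp1, E030010N08Rik, Aim1, Casq1, Trp53i11, Lmo2, Accsl, Il17b, Slc44a5, Rln1, Insl6 and Nos3. Gm11032, a predicted gene at a shared locus, was listed at 979.7 FPKM at 35 h against 2749.9 FPKM at 21 h, and at 0 at 49 h. Of the 31 lower genes 10 share their locus with another row, and of the 13 higher genes 4 do.

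Among protein-coding genes with at least 5 FPKM in a library and an unshared locus, predicted genes left out, those called with the smallest differences were Klf4, Lrpap1 and Amot with 1.08, 1.10 and 1.12, and Insl6, Il17b and Ptch1 with -1.01, -1.04 and -1.08. Those not called with the largest upward differences were Alpl, an alkaline phosphatase, with 0.89, Slc7a3, an amino acid transporter, with 0.88, and Ak4, an adenylate kinase, with 0.81. Downwards they were Nccrp1, Dll3 and Coro1a with -0.998, -0.98 and -0.97.

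Pluripotency genes were not lower at 35 h as a group. Of 28 compared, 1 was higher, none was lower and 20 differed upwards at all, with a median of 0.29. Of all 13124 rows compared, 8477 differed upwards, with a median of 0.06. Klf4 (chr4:55540013-55545347), a Krüppel-like factor of the naive pluripotent state, had 31 FPKM at 35 h against 14.1 FPKM at 21 h, a difference of 1.08, or 0.998 when centred. It had 41.6 FPKM without dox and 23.6 FPKM at 7 h, so that the 21 h library was the lowest from no dox to 49 h. Nanog had 142 FPKM at 35 h against 87.0 FPKM at 21 h, and Zfp42 (Rex1) 156 FPKM at 35 h against 91.9 FPKM at 21 h. Both were above the 35 h level without dox, at 169 FPKM for Nanog and 248 FPKM for Zfp42. Tfcp2l1 and Tbx3, further factors of the naive state, had 26.4 and 23.1 FPKM at 35 h against 15.4 and 13.7 FPKM at 21 h. Lin28a, an RNA-binding protein, differed downwards with 59.3 FPKM at 35 h against 85.1 FPKM at 21 h. At day 6 Nanog was at 1.89 FPKM, whereas Klf4 was at 91.9 FPKM.

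Fibroblast markers, which the feeder layer expresses, differed in the same direction. Of 24 fibroblast markers 23 were compared, none was past the limit, and 21 differed upwards, with a median of 0.32, or 0.24 when centred. Of all 13124 rows compared, 8477 differed upwards. None of the 24 was at 0 in either library. Their summed level was 2746 FPKM without dox, 1371 FPKM after 7 h, 1807 FPKM after 21 h, 2323 FPKM after 35 h and 3599 FPKM after 49 h. Col3a1 had 68.9 FPKM at 35 h against 40.0 FPKM at 21 h, and Postn 22.5 FPKM at 35 h against 14.4 FPKM at 21 h. Dab2 and Pdgfra, a receptor of primitive endoderm and of fibroblasts, were lowest at 7 h like that sum, and Pdgfra had 5.62 FPKM at 35 h against 3.55 FPKM at 21 h. Feeder markers summed to 345 FPKM at day 6 and 65.0 FPKM in wild-type XEN cells, where Dab2 was at 1133 and 749 FPKM and Gata4 at 303 and 337 FPKM. Those libraries do not show which cells gave the RNA at 21 h and 35 h. The part of feeder RNA in the higher genes was not tested.

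**Figure D3:**
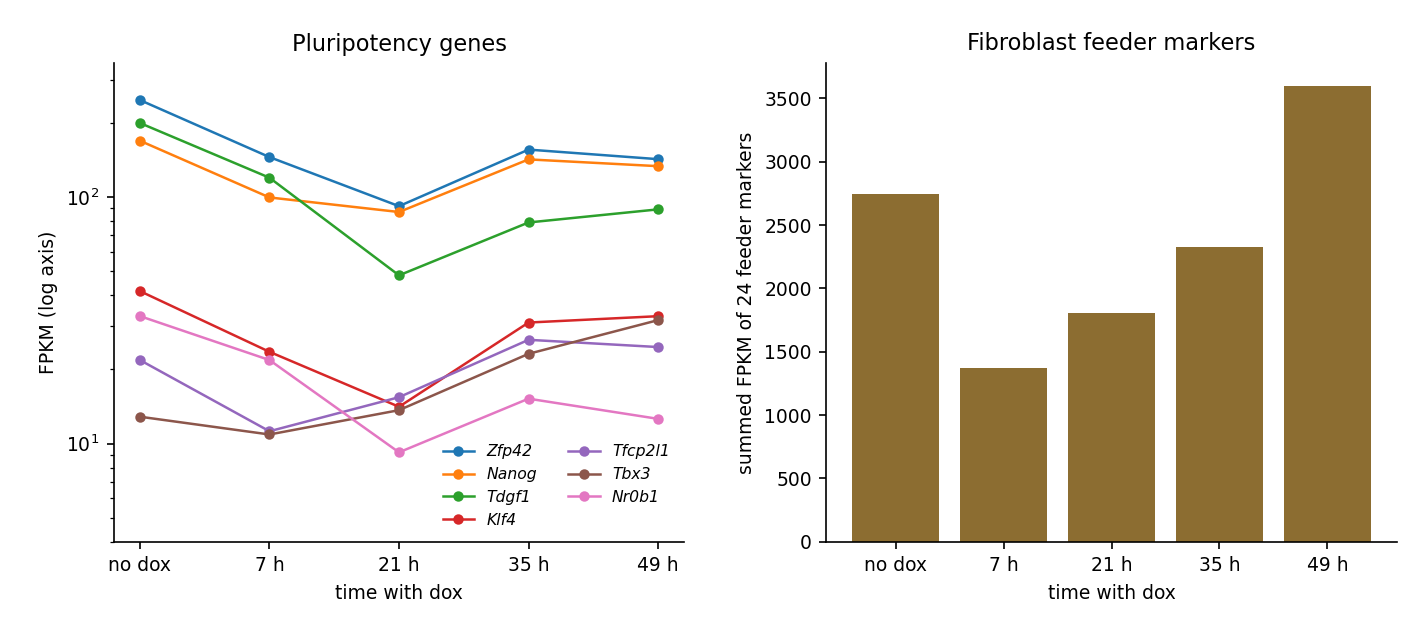
Left, FPKM (log axis) of 7 pluripotency genes from no dox to 49 h; right, summed FPKM of 24 fibroblast feeder markers in the same libraries, 1 library per time. Klf4 and Zfp42 are lowest at 21 h and higher at 35 h; the feeder sum is 2323 FPKM at 35 h against 1807 FPKM at 21 h, and is highest at 49 h.

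Of 33 gene lists, 26 had no member past 1 log2 unit in either direction, with medians between -0.32 and 0.32. Over all rows compared, only 0.541% were higher and 0.701% lower, so most short lists would hold no such member at these shares. For the counts below, 8477 of all 13124 rows compared differed upwards and 4647 downwards. Genes of endothelium, where SoxF factors also act, had a median of -0.32, with 11 of 13 downwards. Mmrn2, an endothelial matrix protein, had 6.399 FPKM at 35 h against 12.8 FPKM at 21 h. Wnt targets and inhibitors had a median of -0.25 with 9 of 11 downwards, although Dkk1, a secreted Wnt inhibitor, had 1.04 FPKM at 35 h against 0.0751 FPKM at 21 h. Parietal endoderm genes and basement membrane genes, both products of later extraembryonic endoderm, had medians of 0.23 and 0.21. Of 15 parietal endoderm genes 11 differed upwards and 4 downwards. Pth1r, the parathyroid hormone receptor of parietal endoderm, had 6.99 FPKM at 35 h against 4.40 FPKM at 21 h, whereas Krt8, a simple-epithelial keratin, had 27.6 FPKM at 35 h against 38.0 FPKM at 21 h. Col4a1, a chain of collagen IV, had 278 FPKM at 35 h against 220 FPKM at 21 h. Visceral endoderm genes had a median of -0.13 over 9 compared. Endocytosis and lysosome genes had a median of 0.26, with Dab2 the 1 member past the limit of 20 compared. In the SOX and GATA families, Gata4 and Gata6 were the 2 of 13 past the limit, and Sox15, an HMG-box factor of ESC, had 17.1 FPKM at 35 h against 8.29 FPKM at 21 h. Housekeeping genes had a median of 0.11 over 16 compared.

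**Figure D4:**
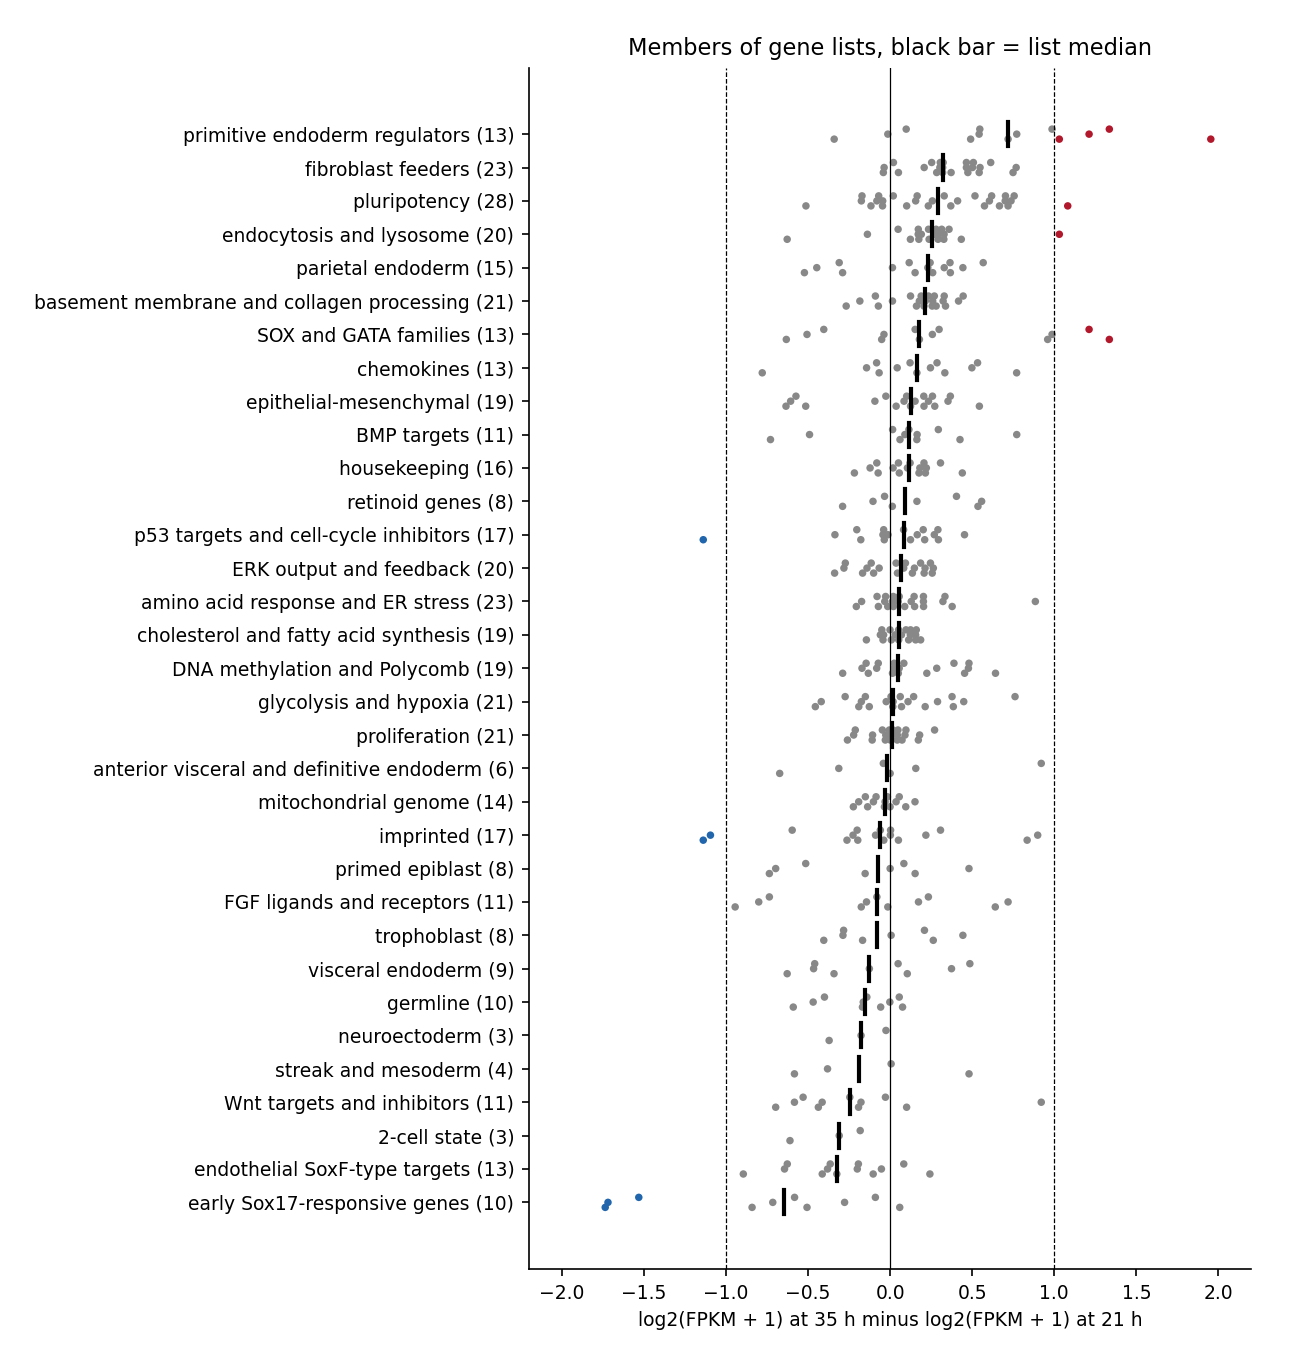
Differences in log2(FPKM + 1), 35 h minus 21 h, of the members compared in each of 33 gene lists (number in brackets), sorted by median (black bar). Dashed lines mark 1 log2 unit; red and blue points lie outside them. Primitive endoderm regulators have the highest median, 0.72, and early Sox17-responsive genes the lowest, -0.65. Both lists were drawn up with earlier results on these libraries known, so their rank is not independent evidence.

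The libraries at 49 h and 7 h played no part in calling the 13 higher and 31 lower genes and bracket the step in time. In that pair 5.2% of 11966 protein-coding genes were higher and 1.08% lower, with a median difference of 0.15. Of the 13 genes higher at 35 h, 11 were higher at 49 h than at 7 h, none was lower and all 13 differed upwards, by 0.46 to 3.48 with a median of 2.24. The other two were Grin1 with 0.79 and Klf4 with 0.46. Those 11 are 84.6% of the 13 and 1.77% of the 622 genes higher at 49 h. Among the 31 genes lower at 35 h, 30 could be compared, 16 were lower at 49 h than at 7 h, none was higher and 27 differed downwards, with a median of -1.08. They are 53.3% of the 30 and 12.4% of the 129 genes lower at 49 h. Centred on the median difference, the counts were 11 of the 13 and 18 of the 30.

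Cdkn1c, Cpne2 and Lmo2 did not share that direction. Cdkn1c had 10.2 FPKM at 49 h against 9.71 FPKM at 7 h, Cpne2 13.2 FPKM at 49 h against 10.9 FPKM at 7 h, so that both stood out at 21 h. Lmo2, a LIM-domain factor of blood and endothelium, had 1.16 FPKM at both 49 h and 7 h. Of the primitive endoderm regulators all 14 were compared and all were higher at 49 h than at 7 h, with a median of 2.16. That list was drawn up with earlier results on these libraries known, so its direction here is not independent evidence. Of the 23 feeder markers compared, 15 were higher, with a median of 1.23, so that feeder markers were higher in this pair as well. Among rows with an unshared locus, 8 of 9 higher genes were higher at 49 h and 12 of 21 lower genes were lower.

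The first hours of dox gave another picture. At 7 h against no dox, 0.787% of 11819 protein-coding genes were higher and 1.68% lower. Of the 30 lower genes compared, 7 were higher at 7 h, namely Nkx2-9, Cyp4f14, Col9a1, Cd247, Insl6, Apod and Gad1, and 2 were lower. Of the 10 higher genes compared, 1 was higher at 7 h, Grin1, and none was lower. Foxq1, Gata6 and Nrg2 were under 1 FPKM in both libraries.

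In the day 6 library against no dox, 19.6% of 12235 protein-coding genes were higher and 13.8% lower. Of the 13 higher genes, 10 were higher and 1, Calcoco2, was lower. Of the 22 lower genes compared, 15 were lower and 1, Cyp4f14, was higher, with 2.62 FPKM at day 6 and 0.0559 FPKM without dox. In wild-type XEN cells against R1 ESC, both labelled wild-type, 29.2% of 12055 genes were higher and 16.7% lower. There 9 of the 13 higher genes were higher, and Grin1, Rhox9 and Calcoco2 were lower. Of 23 lower genes compared, 19 were lower and none was higher. Most of those 19 were under 1 FPKM in wild-type XEN cells, as were most of the 15 lower genes in the day 6 library. Likewise, Foxq1, Gata4, Gata6 and Nrg2 were under 1 FPKM without dox and in R1 ESC. In every pair, a gene under 1 FPKM in one library entered only through the other, which fixed its direction. The 49 h and the first-hours pairs share the 7 h library, and the first-hours and day 6 pairs share the library without dox, so their values are not independent of each other.

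**Figure D5:**
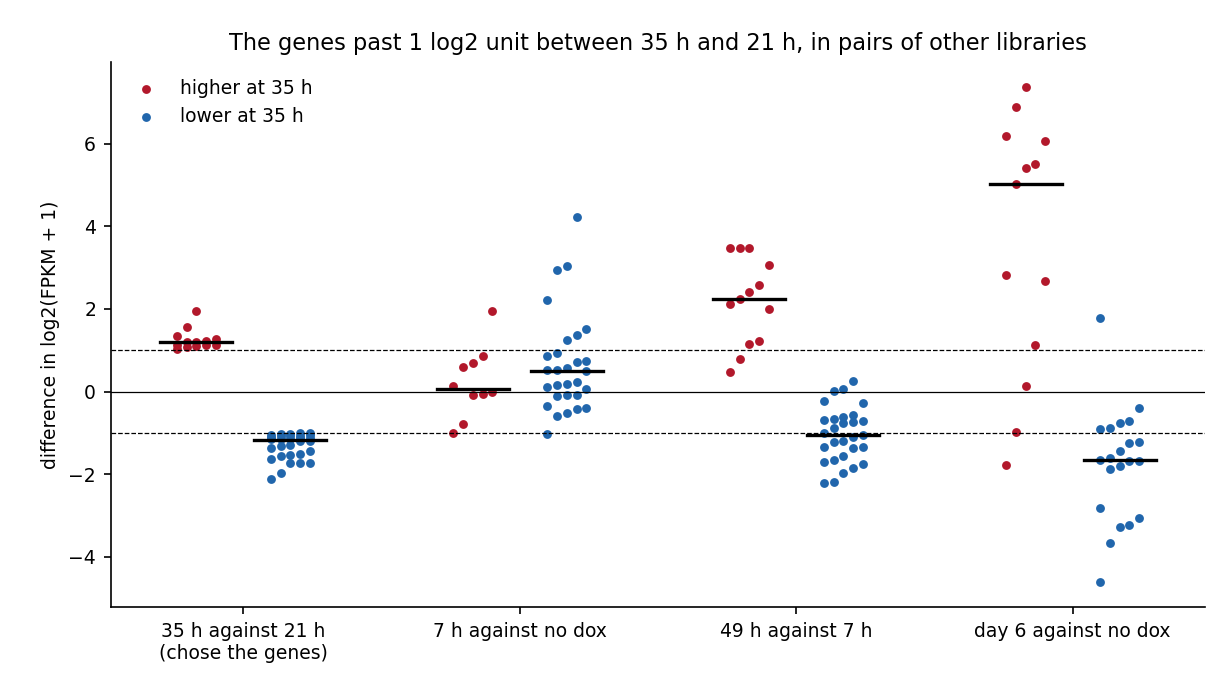
Differences in log2(FPKM + 1) of the 13 genes higher (red) and 30 of the 31 genes lower (blue) at 35 h than at 21 h, in the pair that chose them and in 3 pairs of other libraries; Gm11032 is left out, and black bars are medians of the points shown. At 49 h against 7 h all 13 red points lie above 0, while at 7 h against no dox the blue points reach 4.24 (Nkx2-9).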

How the data were processed

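Total RNA was extracted with Trizol and sequenced from TruSeq RNA libraries, per the labels' protocols. Per the submitters' processing notes, the tools were Cufflinks 2.1.2, TopHat2 2.0.11 and Cuffdiff (no version), on build mm9. The authors deposited FPKM per gene with a confidence interval and a status per library, per the file headers. The table holds no counts, so absolute depth is unknown and no detection floor is given. Whether strand was used is not stated, and 38.9% of rows have a locus that a further row also lists.

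From these values, log2(FPKM + 1) differences were computed for rows with an OK status in both libraries and at least 1 FPKM in one of them. With 1 library a group no p-value was computed. The calculation was tested on simulated data. Gene types came from GENCODE M21 by Ensembl identifier (32917 of 37975 rows matched), and coordinates are 1-based in mm9. Promoters came from the RefSeq table of GRCm38.p6, with only the first listed start of each gene, and were matched by symbol. Python 3.11.15, numpy 2.4.6, pandas 2.3.3 and matplotlib 3.10.9 were used.

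Named genes were Sox17, Gata4, Gata6, Col9a1 and Nkx2-9, up to 12 protein-coding genes per direction past 1 log2 unit with at least 5 FPKM in a library and an unshared locus, the 3 on each side of the limit, and up to 4 members per list. The other genes named were chosen after their values were seen. A few genes that the rule covers are counted but not reported by name here. The comparison, the 33 lists and the rules were chosen with earlier results of these data known. Leading with protein-coding rows was decided after the data were seen. Alternatives changed the pseudocount, the filter on low values, the size of the difference, the centring, the rows admitted and the use of the deposited intervals.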

Additional observations from a re-analysis of the deposited data

How the results depend on the processing

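With 1 library a group, none of the differences has a replicate error, and leaving out a replicate was not possible. No paired analysis was possible because each group has 1 library. Low levels are a further limit, since an FPKM there rests on few reads. The counts of all rows past the limit, 71 higher and 92 lower at 35 h, could not change with no filter or with 1 FPKM in any library. With a pseudocount of 1 FPKM, a row under 1 FPKM in both libraries cannot reach 1 log2 unit. When centred, the counts stayed within 1.5 times. With a pseudocount of 0.1 FPKM they were 107 and 235, with one of 5 FPKM 39 and 38, at 2 log2 units 35 and 35 and at 0.5 log2 units 284 and 504. At 5 FPKM or more in one of both libraries 60 were lower. Unshared loci left 22 and 36, protein-coding rows 13 and 31, both conditions 9 and 21, and protein-coding rows when centred 11 and 55. The last 2 settings were chosen after seeing the data. At 49 h against 7 h the 702 higher and 236 lower rows became 1141 and 433 with a pseudocount of 0.1 FPKM, 245 and 86 with 5 FPKM, 89 and 61 at 2 log2 units, 2628 and 762 at 0.5 log2 units, and 436 and 124 with unshared loci. At 5 FPKM or more 149 were lower, among protein-coding rows 129 were lower, and among protein-coding rows when centred, which lowered values by 0.13, 419 were higher and 179 lower. Between the lines without dox, the 804 rows became 1540, 262, 89, 4206 and 416 under the same first 5 settings. Requiring intervals that do not overlap left 0 rows in every one of these comparisons. Settings that admit fewer rows or move the limit change the counts by construction. So do the pseudocounts and the centring. A larger pseudocount shrinks each difference, most at low levels, and centring shifts every value by the same amount. With a pseudocount of 5 FPKM, 17 named genes that had been past the limit no longer were, Gata4 among them. No named gene past the limit changed sign under either pseudocount or when centred. Of 33 list medians, 7 changed sign when centred, none of them above 0.08 before or below -0.07 after.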

Other observations

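Of the 13 protein-coding genes higher at 35 h, 4 lie on the X chromosome (Porcn, Rhox6, Rhox9 and Amot), and none of the 31 lower genes does. X-linked genes made up 3.33% of the protein-coding genes compared (399). The median difference of X-linked genes at 5 FPKM or more in both libraries was 0.11, against 0.08 for the other genes. That median and a share of called genes are unlike measures, and a difference of the X chromosome as a whole was not tested. Rhox6 and Rhox9 lie close together, and 2 further members of the cluster differed downwards. Rhox13 had 1.44 FPKM at 35 h against 1.73 FPKM at 21 h, and Rhox1 had 2.15 FPKM at 35 h against 3.202 FPKM at 21 h.

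Past 2 log2 units lay 35 rows in each direction, of which none of the higher and 1 of the lower, Alox5ap, was protein-coding. Small nuclear RNAs accounted for 9 higher and 7 lower rows past 1 log2 unit, and microRNA genes for 6 higher and 5 lower rows. The higher value of the pair had a median of 7.42 FPKM among the higher rows not annotated as protein-coding and 6.95 FPKM among such lower rows.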
